A study of Mus musculus with 71 samples.

Results

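The cadherins and protocadherins measured here are 55 of the 18193 genes on the array. They were taken by symbol: each probe set whose annotation gave exactly 1 gene, and whose symbol was a protocadherin or a numbered cadherin other than Cdh16, was used, and a gene with several probe sets was represented by the probe set of highest mean. The 55 genes comprise 22 of the beta protocadherin cluster, 1 of the gamma cluster (Pcdhgc4), 12 protocadherins outside the clusters, 5 type I cadherins, 11 type II cadherins and 4 others (Cdh13, Cdh17, Cdh23 and Cdh26). No gene of the alpha cluster met the rule, because each of its 6 probe sets is annotated with 9 or 14 symbols. The 71 arrays carried RNA from brains of mice aged 10 to 14 weeks (12 weeks in the extraction protocol of the tissue arrays). In 59 of them, total RNA came from hippocampus, hypothalamus, striatum or cortex of Camk2a-Cre; GLPfl/fl mice, of Camk2a-Cre; G9afl/fl mice, or of floxed littermates without Cre, matched for age and sex, as controls. Each of these 16 groups held 4 arrays, apart from 3 for the G9a hippocampus controls and 2 for each G9a cortex group. The other 12 arrays carried polyribosome-bound mRNA of medium spiny neurons: Drd1-Cre; Drd1-bacTRAP; G9afl/fl and Drd2-Cre; Drd2-bacTRAP; G9afl/fl pools, with pools of G9afl/fl mice that carried Drd1-bacTRAP or Drd2-bacTRAP but no Cre as controls, 3 pools of 5 mice in each group. GLP (gene Ehmt1) and G9a (gene Ehmt2) are the paired enzymes that place methyl groups on histone H3 lysine 9, and Camk2a-Cre deletes them in forebrain neurons after birth, so tissue RNA also holds RNA of cells that keep the enzyme.

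Cadherins are calcium-dependent adhesion molecules whose extracellular repeats bind like molecules on the neighbouring cell. Classical type I and type II cadherins are tied to actin through catenins and hold synaptic junctions together. The clustered protocadherins are encoded as tandem variable exons, and each neuron transcribes a stochastic subset of them, which gives it a surface identity used in self-recognition. Their promoters are governed by DNA methylation, CTCF and cohesin. Protocadherins outside the clusters have their own loci, and several bind the actin-regulating WAVE complex. In bulk tissue, fewer cells of a type and less RNA per cell cannot be told apart.

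Of the 7 cadherins and protocadherins that changed in a mutant tissue, described below, 3 have a RefSeq promoter sequence (GRCm38.p6) in the tables used here. The 250 bases before the start site are shown for these 3 genes, whose CG content differs widely. A link between CG content and the change in level was not tested. Capitals mark each CG, which reads the same on both strands.
Cdh22: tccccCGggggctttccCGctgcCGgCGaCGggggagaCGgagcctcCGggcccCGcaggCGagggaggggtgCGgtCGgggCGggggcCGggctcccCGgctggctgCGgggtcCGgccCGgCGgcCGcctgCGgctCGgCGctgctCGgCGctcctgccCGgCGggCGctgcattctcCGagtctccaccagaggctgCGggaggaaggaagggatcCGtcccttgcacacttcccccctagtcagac
Pcdh17: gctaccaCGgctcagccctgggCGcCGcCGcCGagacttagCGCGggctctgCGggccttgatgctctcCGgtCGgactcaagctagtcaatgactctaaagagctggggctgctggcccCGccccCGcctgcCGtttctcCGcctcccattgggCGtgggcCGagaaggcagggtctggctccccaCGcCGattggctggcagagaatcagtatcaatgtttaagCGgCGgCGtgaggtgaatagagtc
Cdh10: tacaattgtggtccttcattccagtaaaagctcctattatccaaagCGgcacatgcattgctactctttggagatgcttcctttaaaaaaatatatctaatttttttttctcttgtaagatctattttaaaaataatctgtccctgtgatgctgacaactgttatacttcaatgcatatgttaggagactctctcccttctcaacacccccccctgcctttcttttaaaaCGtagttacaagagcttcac
The Cdh22 sequence (chr2:165234738-165234987, minus strand) holds 30 CG, a number reached by 5.94% of 32851 promoters of the same length. The Pcdh17 sequence (chr14:84443313-84443562, plus strand) holds 21, reached by 16.3% of promoters. For Cdh10 (chr15:18820079-18820328, plus strand) there are 2, and 81.2% of promoters hold at least that many, with a median of 6 over all.

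Values are log2 intensities relative to the array median, so 0 is the median of an array. "Rose" and "fell" are used only where limma's adjusted p (Benjamini-Hochberg, over all genes tested in that comparison) was under 0.05. A gene was tested where it lay above the array median in at least as many arrays as the smaller group holds; 39 of the 55 genes were tested at least once and 16 never. Ehmt1 stood at 67.0%, 89.8%, 72.6% and 58.9% of its control level in the GLP mutant hippocampus, hypothalamus, striatum and cortex, and did not pass in the hypothalamus (adjusted p = 0.711). Ehmt2 stood at 44.6%, 49.2%, 41.1% and 29.5% in the same G9a mutant tissues. The pools labelled mutant had Ehmt2 at 24.3% of the control level for Drd1 (adjusted p = 0.943) and 94.5% for Drd2 (adjusted p = 1.0), so the targeted gene does not bear out the Drd2 label. The Drd1 value leans on mutant pool 2, where Ehmt2 read 1.56, against 5.01 and 4.93 in the other mutant pools and 5.49 to 6.22 in controls. Ehmt1, not targeted in these pools, was also low in that pool (1.53, against 3.49 and 3.44 in the other mutant pools). Where the probe sets of Ehmt1 and Ehmt2 lie relative to the floxed exons is not known here. Among tissues, the mean levels of 5 hippocampal, 7 hypothalamic, 4 striatal and 4 cortical marker genes were each highest in the tissue they mark. By Xist, the 43 female tissue arrays include every GLP array, and the 16 male arrays lie in all 4 G9a tissues. The G9a cortex arrays were all male, and the other G9a tissues held both sexes.

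In mutant tissue most of the changes were upward, as they were over all genes, where rises outnumbered falls in every tissue comparison (shares below). Of 349 tests of a cadherin or protocadherin in the 10 mutant comparisons, 15 passed, in 7 genes: 12 rises and 3 falls. Thus 7 of the 39 members ever tested passed at least once, against 1107 of 13233 genes. In 14 of the 15 the mutant and control arrays did not overlap, the exception being Cdh13 in the G9a hypothalamus. Small groups picked by their adjusted p seldom overlap, so this adds no support of its own. The share without overlap over all called genes is not given here. The protocadherin Pcdh11x rose in 4 comparisons, while Pcdh17 fell in 3. Cdh13 rose in 3, Pcdhb22 in 2, and Pcdhb7, Cdh22 and Cdh10 in 1 each.

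By tissue, 2 of 33 tested members passed in the GLP hippocampus, where 2.05% of all tested genes did (1.73% rose and 0.317% fell). The other GLP tissues had 1 of 35 in the hypothalamus (background 1.01%: 0.824% rose and 0.191% fell), 1 of 35 in the striatum (background 1.67%: 1.15% rose and 0.52% fell) and 2 of 33 in the cortex (background 1.54%: 1.31% rose and 0.233% fell). After loss of G9a they were 3 of 35 in the hippocampus (background 2.72%: 2.25% rose and 0.469% fell), 3 of 36 in the hypothalamus (background 2.34%: 1.59% rose and 0.75% fell), 3 of 36 in the striatum (background 3.02%: 1.87% rose and 1.15% fell) and 0 of 34 in the cortex (background 0.728%: 0.625% rose and 0.103% fell). With at most 3 members called, none of these counts by itself sets the family apart from all genes. The G9a hypothalamus count ran from 1 to 7 with single arrays left out (7 without mutant 2), and was 0 with its groups fitted alone or with the replicate block, where the count over all genes was 20 or 26 in place of 275. In the G9a cortex the same settings gave 3 and 2 members. In the G9a cortex 3 members had an unadjusted p under 0.05, and the smallest belonged to Pcdhb22, at 2.21 and 2.06 in the mutants and 1.43 and 2.00 in the controls (difference 0.42, adjusted p = 1.0).

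**Figure D1:**
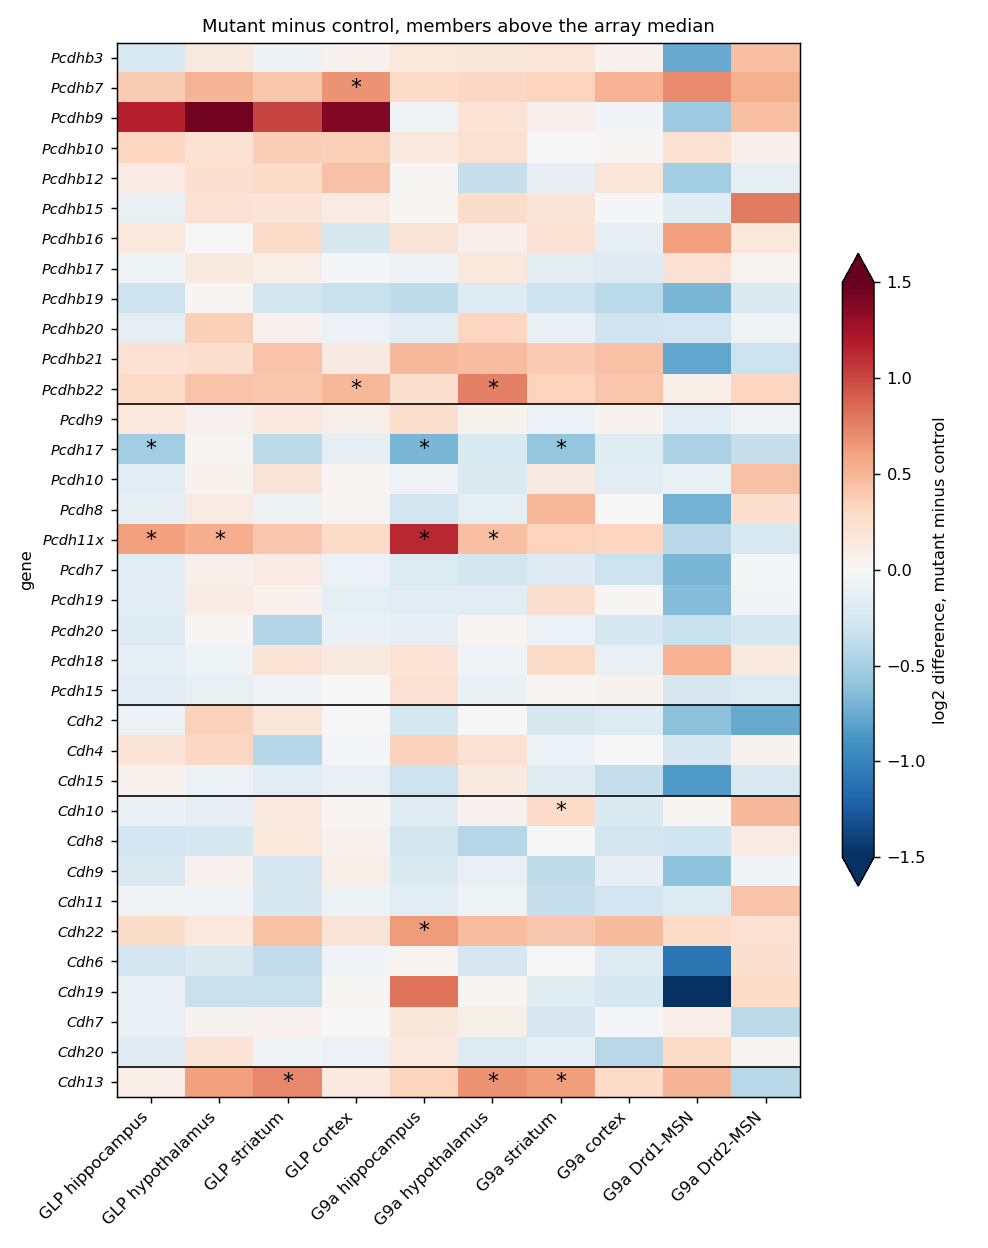
Mutant minus control difference (log2, colour) of the 35 cadherins and protocadherins whose mean lies above the array median, by comparison, with beta cluster genes in cluster order at the top and black lines between subfamilies. Stars mark the 15 differences with an adjusted p under 0.05; the rows of Pcdh11x, Pcdhb7, Pcdhb22, Cdh13 and Cdh22 are red in all 8 tissue columns.

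Direction was more uniform than the calls. Of the 35 members whose mean lay above the array median, 7 were higher in mutants in all 8 tissue comparisons (20%), against 3.65% of the 11659 genes above the array median. These were Pcdh11x, Pcdhb7, Pcdhb10, Pcdhb21, Pcdhb22, Cdh13 and Cdh22. They are 4 of the 12 beta cluster genes (33.3%) and 3 of the 23 members outside the clusters (13.0%). Beta probe sets may share signal (below), so the beta genes may not count separately. Pcdh11x, Pcdhb7, Pcdhb22, Cdh13 and Cdh22 also hold calls, so their direction is not separate from those calls. Only Cdh11 was lower in all 8 (2.86%, against 3.33% of all genes). The 8 comparisons have separate controls, but the labels do not say whether tissues of 1 line share mice, and no test was made of these shares.

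Pcdh11x, an X-linked protocadherin thought to act in homophilic adhesion between neurons, gave the largest difference that passed. In the G9a hippocampus it read 5.04, 4.95, 5.22 and 5.13 in the 4 mutants, against 3.98, 3.77 and 4.11 in the 3 controls. Every mutant array thus lay above every control array, and the level was 2.19-fold higher (log2 difference 1.13, SE 0.14, adjusted p = 5.25e-08 by limma). Within sex the difference was 1.02 in females (2 mutants and 1 control) and 1.24 in males (2 of each). In the GLP hippocampus it read 4.43, 4.28, 4.45 and 4.52 in mutants, against 3.91, 3.18, 3.95 and 4.18 in controls (1.53-fold, adjusted p = 0.00193). Control 2 is the lowest of these arrays; without it the difference was 0.41 and the call was lost (adjusted p = 0.0677).

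In the hypothalamus, where Pcdh11x is at its highest, it rose in both lines by smaller steps. It read 6.43, 6.40, 6.70 and 6.51 in GLP mutants, against 5.90, 5.99, 5.72 and 6.25 in controls (difference 0.54, SE 0.13, adjusted p = 0.0170). The call was lost without mutant 3, control 1 or control 3, with adjusted p between 0.0714 and 0.132. In G9a mutants it read 6.79, 6.76, 6.84 and 7.0, against 6.23, 6.43, 6.46 and 6.45 in controls (difference 0.45, SE 0.13). That call is marginal (adjusted p = 0.0486), and it was kept only when mutant 2 was left out, the other 7 omissions giving adjusted p of 0.0508 to 0.123. In both striata and both cortices the difference was between 0.29 and 0.41 and did not pass. A separate Pcdh11x probe set was also higher in all 8 tissue comparisons, by 0.27 to 1.50, and passed in both hippocampi (all probe sets tested, adjusted p = 0.0272 for GLP and 9.11e-09 for G9a). With the groups of each tissue fitted alone, Pcdh11x kept its call in the G9a hippocampus but not in the GLP hippocampus (adjusted p = 0.121), the GLP hypothalamus (0.131) or the G9a hypothalamus (0.398).

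Pcdh17, a protocadherin of the delta group that in mice shapes synapses of cortico-striatal circuits and axon growth, moved the other way. In the G9a hippocampus it read 4.48, 3.97, 4.10 and 4.39 in mutants, against 4.86, 4.81 and 5.11 in controls. All mutants lay below all controls (log2 difference -0.69, SE 0.13, adjusted p = 0.000359). It also fell in the G9a striatum, at 4.75, 4.57, 4.37 and 4.79 in mutants, against 5.20, 5.29, 5.42 and 4.90 in controls (difference -0.58, SE 0.12, adjusted p = 0.00136). Both calls were kept whichever array was left out. In the GLP hippocampus it read 5.08, 5.21, 4.91 and 5.04 in mutants, against 5.80, 5.66, 5.47 and 5.40 in controls (difference -0.52, adjusted p = 0.00643). The last call was lost without control 1 (difference -0.45, adjusted p = 0.0527).

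The difference of Pcdh17 was negative in 7 of the 8 tissue comparisons and 0.04 in the GLP hypothalamus. A separate probe set of the gene fell in the G9a striatum (-0.59, adjusted p = 0.0148) and differed by -0.49 and -0.45 in the GLP and G9a hippocampus, where it did not pass. In the G9a tissues with both sexes the difference was negative in females and in males alike, from -0.71 to -0.21.

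Markers of other cells moved in both hippocampal comparisons in which Pcdh11x and Pcdh17 passed. Of 8 choroid plexus markers, 7 rose in the GLP hippocampus; their mean level ran from 4.33 to 5.09 in mutants and from 0.99 to 3.43 in controls. In the G9a hippocampus 5 of these 8 were tested and 1 rose (background 2.72%), with list means of 0.91 to 1.64 in mutants and 0.05 to 0.39 in controls. Of 8 markers of meninges and fibroblasts, 7 were tested there and 3 rose, with list means of 1.80 to 3.18 in mutants and 1.40 to 1.87 in controls. Of 4 cortical markers, Cux2 rose by 1.04 and Lamp5 by 0.65 in the G9a hippocampus. Their list averaged 3.88 to 4.20 in mutants and 3.46 to 3.84 in controls. Lamp5 fell by 0.54 in the G9a hypothalamus. Of 5 hippocampal markers in the G9a hippocampus, Tdo2 rose by 1.83 and Homer3 fell by 0.66, with a list median difference of -0.11. Tdo2 also rose by 1.57 in the GLP hippocampus, 2.98 in the GLP cortex and 3.05 in the G9a cortex. The part of other cells or of neighbouring tissue in the changes of Pcdh11x, Pcdh17 and Cdh22 was not tested. In the G9a striatum, where Pcdh17 fell, none of the 7 choroid plexus markers tested passed, though their median difference was 0.68. The cortical marker Tbr1 rose by 1.99 there. The mean of 4 cortical markers ran from 3.54 to 3.83 in mutants and from 2.81 to 3.78 in controls. The neuronal marker Stmn2 also rose there, by 0.66 (adjusted p = 0.00548). The mean of 5 neuron markers ran from 7.78 to 7.94 in G9a striatum mutants and from 7.66 to 7.72 in controls, and that of 5 endothelial markers from 2.30 to 2.45 in mutants and from 2.46 to 2.62 in controls, without overlap in either list. These values moved with the calls of Pcdh17, Cdh13 and Cdh10 in the G9a striatum, and their part in them was not tested.

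**Figure D2:**
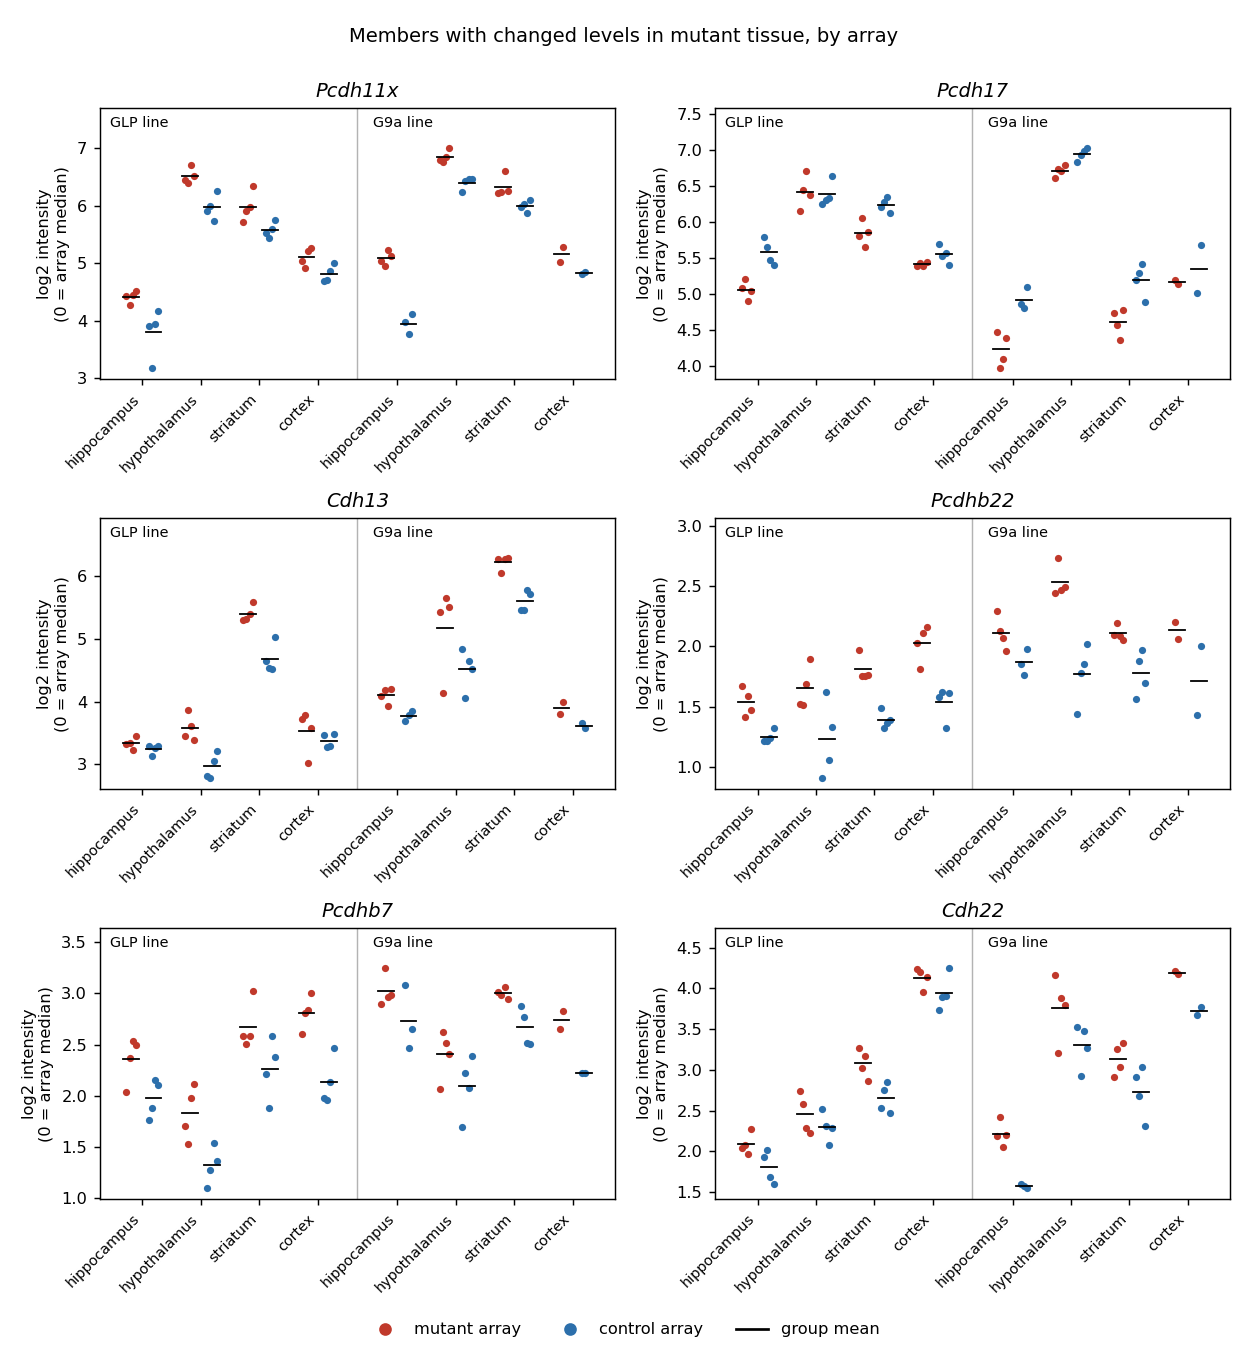
Log2 intensity (0 is the array median) of 6 cadherins and protocadherins on each tissue array, mutants in red to the left of controls in blue, with the group mean as a black line; n is 4 arrays a group, 3 for G9a hippocampus controls and 2 for each G9a cortex group. Pcdh11x lies higher in mutants in all 8 pairs and Pcdh17 lower in 7 of 8.

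Within the beta cluster, 12 of the 22 genes lay above the array median and 14 were tested at least once. Probe sets of this cluster are made for near-identical tandem genes, so a value may hold signal of more than the named gene, and which share of it does was not tested. Of the 14 tested, 2 passed at least once (Pcdhb22 and Pcdhb7), against 1107 of the 13233 genes ever tested. In the G9a hypothalamus Pcdhb22 read 2.44, 2.73, 2.47 and 2.49 in mutants, against 1.44, 1.78, 1.85 and 2.02 in controls. The groups did not overlap (difference 0.76, SE 0.12, adjusted p = 6.33e-05), and the call was kept whichever array was left out. With the hypothalamic groups fitted alone the difference no longer passed (adjusted p = 0.207).

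In the GLP cortex both genes rose. Pcdhb7 read 2.60, 2.81, 2.84 and 3.00 in mutants, against 1.98, 1.96, 2.14 and 2.47 in controls (difference 0.68, SE 0.15, adjusted p = 0.00571). Pcdhb22 read 2.03, 1.81, 2.12 and 2.16 in mutants, against 1.58, 1.62, 1.32 and 1.61 in controls (difference 0.49, adjusted p = 0.0160), a call lost without mutant 3, mutant 4 or control 3 (adjusted p of 0.0726 to 0.135). Across the 8 tissue comparisons Pcdhb22 differed by 0.25 to 0.76 and Pcdhb7 by 0.29 to 0.68, and all mutants lay above all controls in 6 and 3 of them.

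Over the 12 beta genes above the array median, the median difference was positive in 7 of the 8 tissue comparisons. It was 0.14, 0.24, 0.28 and 0.13 in the GLP hippocampus, hypothalamus, striatum and cortex, and 0.08, 0.22, 0.13 and -0.001 in the same G9a tissues. Over all genes above the array median the corresponding medians lay between -0.02 and 0.03. Of the 12 genes, 7, 12, 10 and 8 were higher in mutants in the GLP hippocampus, hypothalamus, striatum and cortex, where 42.9%, 49.8%, 44.8% and 51.0% of all such genes were. In the same G9a tissues 8, 10, 8 and 6 of the 12 were higher, against 57.8%, 52.7%, 49.3% and 42.9% of all genes. Pcdhb19 went against this, lower in 7 of 8 comparisons by up to 0.40 and passing in none.

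Pcdhb9, the beta gene of highest mean signal (4.25, the lowest being Pcdhb1 at -3.30), had the largest differences of any beta gene in the GLP line and passed in no tissue. In GLP mutants it read 4.70, 4.37, 4.24 and 4.76 in the hippocampus and 4.35, 3.81, 3.66 and 4.39 in the cortex. In controls it read 1.90, 2.68, 4.82 and 4.02 in the hippocampus and 1.43, 1.02, 4.45 and 3.77 in the cortex. Controls 1 and 2 were low and controls 3 and 4 high in all 4 tissues: 0.53, 0.91, 3.79 and 2.55 in the hypothalamus, and 2.55, 2.27, 4.95 and 4.42 in the striatum. The SD over GLP controls was 1.31 to 1.70, against 0.25 to 0.44 over GLP mutants, and adjusted p ran from 0.309 to 0.597. In G9a mutants it lay between 4.05 and 5.27, and in G9a controls between 4.03 and 5.53.

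Another beta gene, Pcdhb3, named after its values were seen, also kept an order by array number. In GLP mutants number 1 was the lowest array in all 4 tissues (1.57, 1.13, 1.87 and 1.98 from hippocampus to cortex). In GLP controls number 3 was the lowest in all 4 (1.71, 0.92, 1.62 and 1.92). The Pcdhb3 group means differed by -0.22 to 0.13 in the GLP tissues, less than the spread within groups (SD of 0.33 to 0.52).

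**Figure D3:**
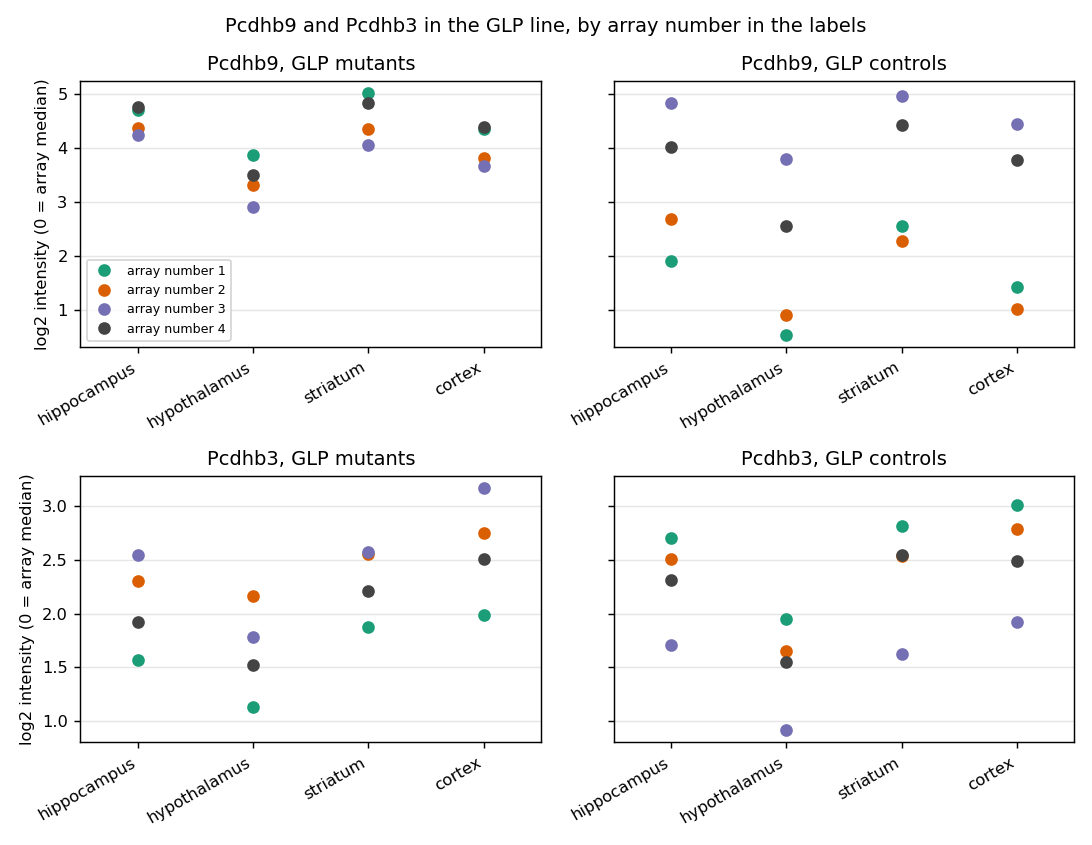
Log2 intensity (0 is the array median) of Pcdhb9 and Pcdhb3 on each GLP array by tissue, mutants left and controls right, coloured by the array number in the labels. Pcdhb9 is low in controls 1 and 2 in every tissue, and Pcdhb3 is lowest in mutant 1 and control 3.

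Among cadherins outside the protocadherins, Cdh13 changed most often. Cdh13 (T-cadherin) lacks the usual cytoplasmic tail, is held by a lipid anchor and binds adiponectin. In the GLP striatum it read 5.30, 5.31, 5.39 and 5.59 in mutants, against 4.65, 4.54, 4.52 and 5.03 in controls, without overlap (1.64-fold, adjusted p = 0.0169). In the G9a striatum it read 6.28, 6.06, 6.28 and 6.29 in mutants, against 5.46, 5.46, 5.79 and 5.71 in controls, also without overlap (difference 0.62, SE 0.18, adjusted p = 0.0377). In the G9a hypothalamus it read 5.43, 4.14, 5.65 and 5.51 in mutants, against 4.84, 4.06, 4.64 and 4.52 in controls (difference 0.67, adjusted p = 0.0284), and mutant 2 lay among the controls. The striatal marker Drd1 rose by 1.11 in the same hypothalamic comparison, while the mean of 4 striatal markers ran from 0.73 to 1.95 in mutants and from 1.07 to 1.68 in controls.

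These 3 Cdh13 calls depend on single arrays. That of the GLP striatum was lost without mutant 4 or controls 1, 2 or 3 (adjusted p of 0.0538 to 0.0860). That of the G9a striatum was lost without mutants 1, 3 or 4 or controls 1 or 2 (0.0955 to 0.150). That of the G9a hypothalamus was lost without mutants 1, 3 or 4 or controls 2 or 4 (0.0577 to 0.180), and without mutant 2 the difference was 1.01. With the hypothalamic groups fitted alone, the G9a hypothalamus call was also lost (adjusted p = 0.981). A separate Cdh13 probe set rose in both striata, by 0.61 in the GLP line (adjusted p = 0.0108) and by 0.78 in the G9a line (adjusted p = 0.000248), and differed by 0.28 in the G9a hypothalamus without passing (adjusted p = 0.328). A further Cdh13 probe set, nearer the array median, differed by -0.28 to 0.44 in tissue and passed nowhere.

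Cdh22, a type II cadherin, rose in the G9a hippocampus, at 2.18, 2.42, 2.05 and 2.20 in mutants, against 1.60, 1.58 and 1.55 in controls (difference 0.64, SE 0.16, adjusted p = 0.0158). The arrays did not overlap, and the call was lost without mutant 2 (adjusted p = 0.0745) or control 2 (adjusted p = 0.0653). In the other 7 tissue comparisons it was higher in mutants by 0.16 to 0.47 without passing. Cdh10, also type II, rose in the G9a striatum, at 5.87, 5.80, 5.74 and 5.79 in mutants, against 5.53, 5.58, 5.54 and 5.40 in controls. The difference was small (0.29, SE 0.08, adjusted p = 0.0358) and was kept only when mutant 3 or control 2 was left out. In the G9a hippocampus all Cdh10 mutant arrays lay below the controls (5.71 to 5.85, against 5.94 to 6.03), so the gene has no common direction, with 4 of 8 tissue differences positive.

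Of the 5 type I cadherins 3 were tested and 0 passed in any mutant comparison. Of all 13233 genes ever tested 1107 passed at least once, so this does not set so few genes apart. Cdh2 (N-cadherin), the type I member of highest mean signal (5.59, against -2.40 for the lowest, the epithelial Cdh1), differed by -0.27 to 0.34 in tissue. Among type II cadherins the mean signal ran from 5.78 for Cdh10 to -2.51 for Cdh18. Among protocadherins outside the clusters it ran from 7.43 for Pcdh9 to -2.38 for Pcdh12, and among the 4 other cadherins from 4.40 for Cdh13 to -3.48 for Cdh17, the intestinal cadherin. Signals of different probe sets are not RNA amounts and set no order between genes. In all, 35 of 55 members (63.6%) lay above the array median, against 64.1% of all genes.

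For the alpha cluster, the 6 probe sets shared by several of its genes are given as a description. The 3 above the array median averaged 5.48, 4.23 and 3.07 over the 71 arrays, and they differed by -0.27 to 0.16 between mutants and controls in tissue. In each of the 10 comparisons 3 to 5 of the 6 were tested. None passed, with 1 unadjusted p under 0.05, in the G9a hypothalamus. By comparison 0.0165% to 3.02% of all tested genes passed, so this does not set the alpha cluster apart. The gamma cluster is represented by Pcdhgc4, whose protein in mice supports survival of interneurons. It lay near the array median (mean -0.50), was tested in 3 comparisons and passed in none.

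Partners and relatives of the cadherins were counted in the same way. Of 18 catenins and junction partners on the array, 15 or 16 were tested in each tissue comparison, and 2 of 15 passed in the GLP hippocampus (background 2.05%). Ctnna1 and Ctnna2, the alpha-catenins that link cadherins to actin, rose by 0.26 and 0.47 in the GLP hippocampus (adjusted p = 0.0222 and 0.0495). Ptprm, a receptor phosphatase that binds cadherin complexes, rose by 0.42 in the GLP striatum, 0.46 in the G9a hippocampus and 0.38 in the G9a striatum (adjusted p of 0.0223 to 0.0470). Among 23 other genes of the cadherin superfamily, Fat3, a giant atypical cadherin that shapes dendrites in the mouse retina, fell by 0.48 in the GLP hippocampus, 0.53 in the G9a hippocampus and 0.48 in the G9a hypothalamus (adjusted p of 0.00224 to 0.00587). Fat3 was lower in mutants in all 8 tissue comparisons. The desmosomal Dsg2 rose by 0.96 in the G9a hippocampus and Cdhr2, a cadherin of the brush border, by 1.02 in the G9a hypothalamus (adjusted p = 0.0485 and 0.0415). Of these relatives, 2 of 12 tested passed in the G9a hippocampus (background 2.72%) and 2 of 16 in the G9a hypothalamus (background 2.34%).

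Of 25 regulators and partners of the protocadherin clusters, including Ctcf, cohesin subunits, Smchd1 and the DNA methyltransferases, 23 or 24 were tested in each comparison. The single gene to pass was Dnmt1, which copies DNA methylation to the new strand. It rose by 0.45 in the G9a hippocampus (adjusted p = 0.0283), 1 of 23 tested there (background 2.72%). Of 17 genes next to the clusters on chromosome 18, 11 to 15 were tested in each of the 10 comparisons, and none passed. By comparison 0.0165% to 3.02% of all tested genes passed, so this does not set so few genes apart. The median differences of both lists lay between -0.06 and 0.05 in tissue.

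Whether loss of GLP and loss of G9a change these genes differently was tested as the difference of the 2 changes in each tissue. Every GLP array was female, while G9a arrays were of both sexes, or male alone in the cortex. In the cortex line and sex thus cannot be told apart, and in the other tissues the part of sex was not tested. No member passed in any of the 4 tissues, where 0.1%, 0.00836%, 0.00847% and 0.017% of all genes did from hippocampus to cortex, with 2, 1, 2 and 0 members at an unadjusted p under 0.05. The smallest unadjusted p belonged to Pcdh11x in the hippocampus, where its GLP change was smaller than its G9a change by 0.52 on the log2 scale (SE 0.19, adjusted p = 0.638). Without GLP hippocampus control 2, the array of lowest Pcdh11x, 1 member passed in the 4 tissues together. Whether the change differs across the 4 tissues was tested within each line. In the G9a line the all-male cortex is set against tissues of both sexes, also for the X-linked Pcdh11x, and the part of sex was not tested. In the G9a line 2 of 38 members passed (background 1.32%): Pcdh11x (adjusted p = 0.0337), whose change was 1.13 in the hippocampus, 0.45 in the hypothalamus, 0.34 in the striatum and 0.32 in the cortex, and Cdh10 (adjusted p = 0.0492), whose change ran from -0.21 in the cortex to 0.29 in the striatum. With single arrays left out, 2 members passed only when hypothalamus mutant 1, 2 or 4 or hypothalamus control 1 or 2 was left out; every other omission gave 1 or 0. In the GLP line 0 of 36 passed (background 1.07%), with 4 at an unadjusted p under 0.05.

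The larger differences lay between tissues. In controls, 34 of 35 tested members differed across the 4 tissues in the GLP line (moderated F test, background 91.7%) and 30 of 38 in the G9a line (background 85%), so the family differs across tissues about as often as all genes. Of 29 members that passed in both lines, 21 had the same highest tissue and 21 the same lowest tissue. The labels do not say whether the arrays of both lines were normalized together, so levels are compared within a line. The exception is the difference from a gene's own mean over the control groups of both lines, used in the figure and for the beta cluster below. Among G9a controls the cortex was male alone and the other tissues held both sexes.

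**Figure D4:**
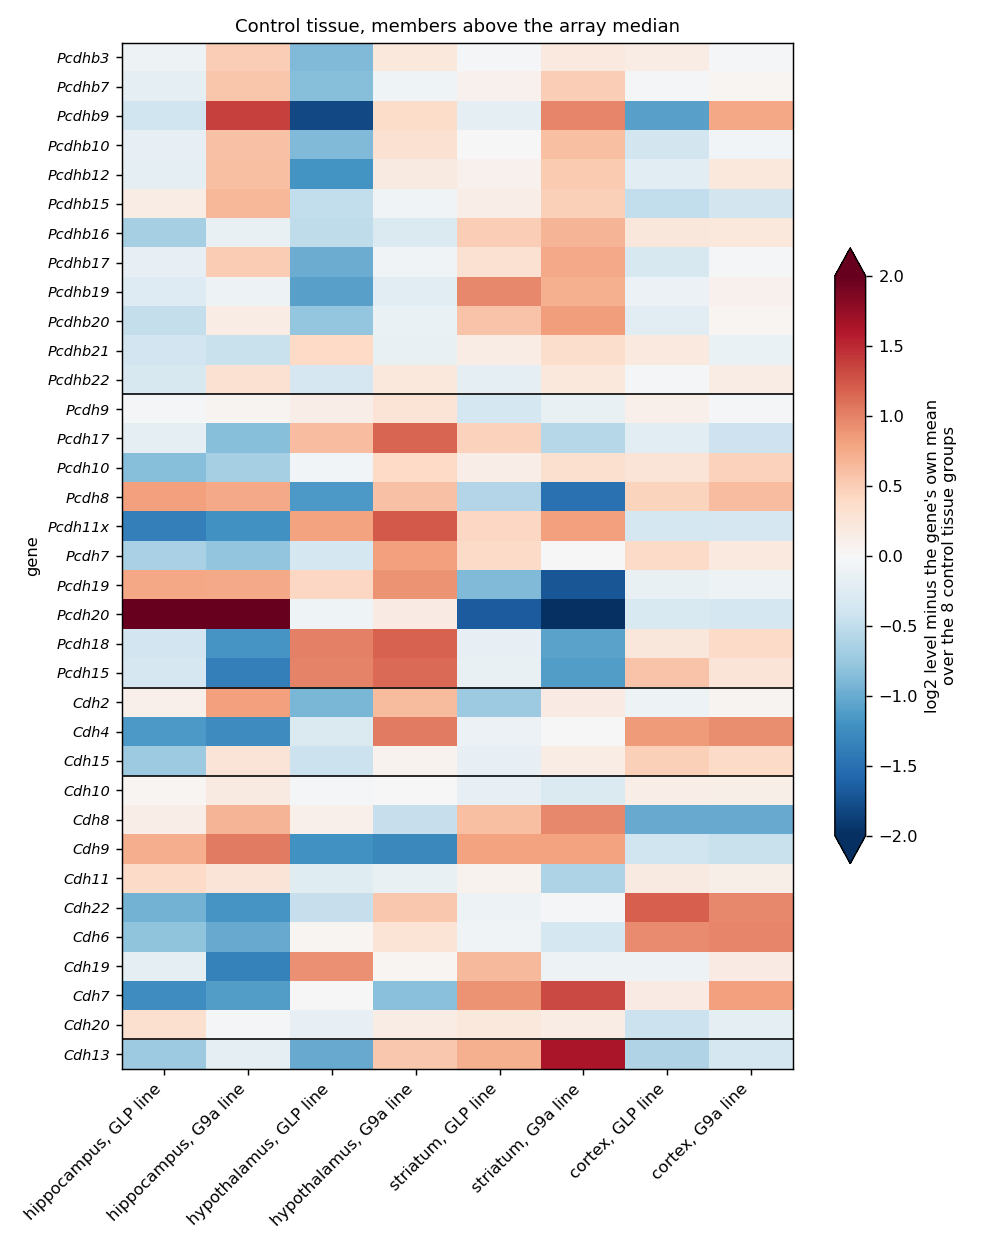
Level of each of 35 cadherins and protocadherins in the 8 control tissue groups, as the log2 difference from the gene's own mean over those groups (colour, limited at 2 either way), each tissue with the GLP line left and the G9a line right. Pcdh20 is the most localised, at 2.78 (GLP line) and 3.19 (G9a line) above the other tissues in the hippocampus. Beta genes lie above their own mean in the striatum in 8 of 12 cases (GLP) and 12 of 12 (G9a), against 49.6% and 57.7% of all genes. Own means span both lines, so an offset between lines enters these counts.

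In the hippocampus Pcdh20, a protocadherin outside the clusters, read 5.94, 6.12, 5.72 and 5.77 in GLP controls and 5.93, 6.26 and 6.35 in G9a controls. Its striatal values were 1.88 to 2.53 in GLP controls and 1.27 to 1.88 in G9a controls, so the tissues stood 13.6-fold and 24.5-fold apart. Cdh9, which in mice helps form mossy fibre synapses in the hippocampus, stood above the mean of the other tissues there by 0.99 (GLP) and 1.35 (G9a). Its highest single tissue was the striatum in GLP controls and the hippocampus in G9a controls. Pcdh8 stood above the other tissues in the hippocampus by 1.25 in the GLP line. Pcdh19, mutated in a human epilepsy of girls, did so by 1.07 in the G9a line, where the hypothalamus was higher still. In GLP controls the hippocampus was the highest tissue of Pcdh19. Pcdh8 in the hypothalamus was 1.38 below the other tissues in GLP controls (4.12 to 4.82) and 0.62 above them in G9a controls (6.02 to 6.38).

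The hypothalamus carried the highest levels of Pcdh11x, Pcdh15, Pcdh17 and Pcdh18. Relative to the other tissues, Pcdh18 was higher by 1.12 (GLP) and 1.81 (G9a), and Pcdh15, a component of the tip links of inner-ear hair cells, by 0.96 and 1.87. Pcdh11x was higher by 1.24 in the GLP line, and Pcdh17 by 1.78 in the G9a line. The hippocampus, in which Pcdh11x rose most, held its lowest control levels, 4.48-fold (GLP) and 5.44-fold (G9a) below the hypothalamus.

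In the striatum Cdh13 stood above the other tissues by 1.49 (GLP) and 1.64 (G9a), and Cdh7, a type II cadherin, by 1.26 and 1.71. Cdh8, type II as well, did so by 1.23 in the G9a line. In the cortex the leading members were the type II cadherins Cdh22, by 1.69 (GLP) and 1.18 (G9a), and Cdh6, by 1.23 and 1.35. Cdh4 (R-cadherin, type I) was higher there by 1.38 in the GLP line and Cdh7 by 1.03 in the G9a line. In G9a controls, though, Cdh4 was highest in the hypothalamus and Cdh7 in the striatum. The lowest Cdh22 levels were in the hippocampus, 4.39-fold and 4.42-fold below the cortex.

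A gene's own mean was taken over the 8 control groups of both lines, so an offset between lines enters counts against it. Beta cluster genes above the array median lay above it in the striatum in 8 of 12 cases in GLP controls (all genes 49.6%). In G9a controls 12 of 12 did (all genes 57.7%). In the hippocampus 9 of 12 did in G9a controls (all genes 61.9%) and 1 of 12 in GLP controls (all genes 49.8%). The beta median was 0.50 above own mean in the G9a hippocampus, against 0.56 in the G9a striatum. In GLP controls these medians were -0.23 and 0.11. Of 11 beta genes tested in both lines, 7 were highest in the striatum in GLP controls, 5 in G9a controls and 4 in both. The hypothalamus was the lowest tissue for 9 of them in GLP controls and for 7 in G9a controls. Pcdhb19 was above the other tissues in the striatum by 1.46 (GLP) and 0.79 (G9a), and it fell on opposite sides of the array median in the GLP striatum (1.92) and GLP hypothalamus (-0.13). Pcdhb22, the beta gene with the largest mutant difference that passed, did not pass the test across tissues in controls of either line (adjusted p = 0.0596 for GLP and 0.809 for G9a).

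In polyribosome RNA of the medium spiny neurons no member passed between pools labelled mutant and control pools, with 0 of 36 for Drd1 (background 0.0249%) and 0 of 36 for Drd2 (background 0.0165%), each with 1 unadjusted p under 0.05. For Drd1 it belonged to Cdh15, the muscle cadherin, at 0.83, -0.78 and 0.96 in mutant pools, against 1.11, 1.15 and 1.29 in control pools. Mutant pool 2 stood apart for Ehmt2 (5.01, 1.56 and 4.93 in mutants, against 6.22, 5.93 and 5.49 in controls) and for members such as Cdh19 (2.45, -1.07 and 3.03 in mutants) and Cdh6 (2.63, -1.17 and 2.93), picked here after their values were seen. Without that pool the Cdh15 difference was -0.29, against -0.84 with all pools. For Drd2 it belonged to Pcdhb15, at 3.00, 3.27 and 2.60 in pools labelled mutant, against 2.13, 2.20 and 2.19 in control pools (difference 0.78, adjusted p = 1.0). Pcdh11x, which rose in tissue, differed by -0.41 in Drd1 pools and by -0.23 in Drd2 pools without passing, and the arrays overlapped. Its separate probe set differed by 0.16 in Drd1 pools and 0.008 in Drd2 pools, of the opposite sign and also without passing.

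Between the neuron types 2 of 36 members differed in control pools (background 15.4%), with 8 at an unadjusted p under 0.05. Cdh20, a type II cadherin, read -0.01, 0.06 and 0.02 in Drd1 controls, against 1.45, 1.23 and 1.22 in Drd2 controls (difference -1.28, SE 0.23, adjusted p = 0.00402). Its Drd1 level is that of the array median, and the call was kept whichever pool was left out. Cdh7 read 2.61, 2.73 and 2.84 in Drd1 controls, against 4.17, 4.57 and 3.75 in Drd2 controls (difference -1.44, SE 0.38, adjusted p = 0.0245). That call was kept only without Drd2 control pool 3, the other 5 omissions giving adjusted p of 0.0549 to 0.0829. Pcdh11x had the next smallest p, at 5.52, 4.87 and 4.79 in Drd1 controls, against 6.63, 7.22 and 6.0 in Drd2 controls, without overlap (difference -1.55, adjusted p = 0.0773). The Y-linked Eif2s3y read -1.66, -1.09 and 0.34 in Drd1 controls, against 3.09, 4.67 and 3.02 in Drd2 controls, so by this gene the sex make-up of the pools differed too. The bacTRAP line and the sex make-up differ with the neuron type, so line, sex and cell type cannot be told apart, also for the X-linked Pcdh11x. Eif2s3y read 4.24, -0.22 and 4.47 in Drd1 mutant pools, set against those same Drd1 controls, and 2.81, 5.04 and 2.36 in Drd2 mutant pools. The part of sex make-up in the Drd1 mutant differences was not tested.

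**Figure D5:**
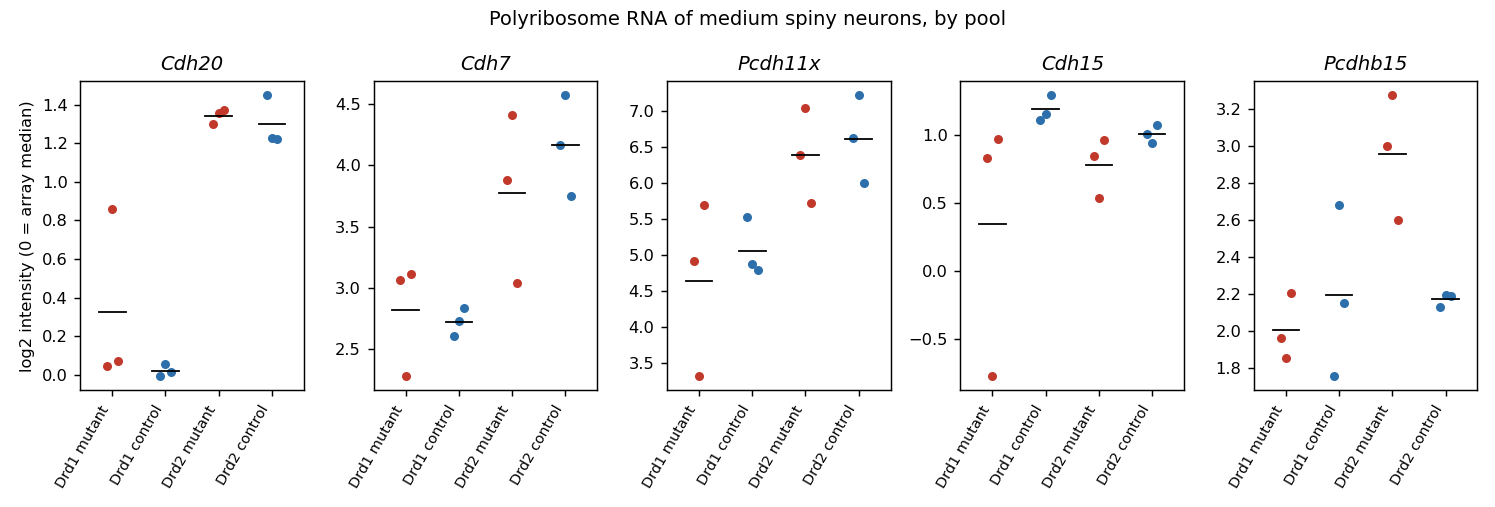
Log2 intensity (0 is the array median) of 5 cadherins and protocadherins in polyribosome RNA, 3 pools a group, with mutant pools (red) left of control pools (blue) for each neuron type and black lines at the group means. Cdh20 separates the Drd1 from the Drd2 control pools, and Drd1 mutant pool 2 is the low point for Pcdh11x and Cdh15.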

How the data were processed

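The authors deposited 1 table with a linear intensity per probe set for each of the 71 arrays, made with GCRMA per the submitters' processing notes; no source used here gives its version or says which arrays were normalized in 1 run. RNA went through 2 cycles of amplification before labelling, per the labels' protocols. Every array has a median of 1 (its centring), and log2 of the intensity was taken; the absolute scale stays unknown. Samples were grouped by genotype, tissue and mutant or control label; replicates are labelled biological, p-values cover the spread between arrays, and precision is limited by the number of arrays. Of 45101 probe sets, the platform annotation gives 34945 a single symbol, 932 more than 1 and 9160 no symbol; 1 probe set per gene (highest mean) was kept.

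limma 3.58.1 in R 4.3.3 was fitted to the 16 tissue groups together and to the 4 polyribosome groups together (empirical Bayes with intensity trend). A gene was tested when its log2 value exceeded 0 on enough of the compared arrays to fill the smaller group, and p-values were adjusted (Benjamini-Hochberg, threshold 0.05) over all genes of a comparison. Fits of all tissue groups share 1 spread. The steps were tested on simulated data. Members, gene lists and marker lists were chosen with earlier results of these data known. Named are all members that passed, and the member of smallest p where none did. The extremes of each subfamily and the 3 leading members per tissue and line are named too. All passing genes of the partner, relative and regulator lists are named, but only some of the passing marker genes. Pcdhb3 was added after its values were seen. The test across tissues within a line and a sex covariate from Xist were also added after seeing the data. Same-numbered mutant and control arrays met the pairing rule only in the Drd2 pools (correlations of 0.16 to 0.48 over 3 pairs), where the paired fit called no member either. Alternatives are given in the closing section.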

Additional observations from a re-analysis of the deposited data

Results flagged for a closer look

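For the 7 genes that changed, 1 array lay far from the other 3 in 8 of 91 cases (a gene in a group of 4 arrays), and chance gives about 1 in 20. In the G9a hypothalamus, Cdh13 read 4.14 in mutant 2, against 5.43 to 5.65 in the other mutants, and Pcdhb22 read 2.73 in the same mutant 2, against 2.44 to 2.49 in the others. Pcdh11x read 6.23 in G9a hypothalamus control 1, against 6.43 to 6.46 in the other controls. In the G9a striatum, Cdh13 read 6.06 in mutant 2, against 6.28 to 6.29, and Pcdh11x read 6.60 in mutant 3, against 6.21 to 6.24. In the GLP striatum, Pcdhb22 read 1.97 in mutant 1, against 1.75 to 1.76, and Pcdhb7 read 3.02 in mutant 4, against 2.50 to 2.58. In the GLP cortex, Pcdhb22 read 1.32 in control 3, against 1.58 to 1.62 in the other controls. In G9a mutants the change of 2 genes differed across the 4 tissues by the moderated F test: Pcdh11x (adjusted p = 0.0337) and Cdh10 (adjusted p = 0.0492). No explanation was tested for any of these.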

How the results depend on the processing

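None of the differences of single named members changed sign. Of 136 counts of members under other settings, 119 stayed equal to the reported count or within 1.5 times of it. Of 224 such counts with 1 array left out, 175 did. A count of 0 that stayed 0 is among those that did. With the compared groups fitted alone, the members called were 1 in the GLP hippocampus, 0 in the GLP hypothalamus, 0 in the G9a hypothalamus, 3 in the G9a cortex and 5 between Drd1 and Drd2 controls. The replicate block left 0 in the GLP hypothalamus, 0 in the G9a hypothalamus and 1 in the G9a striatum, and gave 2 in the G9a cortex and 4 between Drd1 and Drd2 controls; outside the Drd2 pools the arrays share only a number, and the block changed no call in those pools. Without a filter on low values 9 members differed between Drd1 and Drd2 controls. Members whose G9a change differed across tissues numbered 1 under the filter above log2 1, quantile normalization, groups fitted alone, the replicate block, all probe sets and no intensity trend. Among single genes, the Pcdh11x call in the G9a hypothalamus was also lost with no filter (adjusted p = 0.0550), quantile normalization (0.0505), all probe sets (0.0510) and no trend (0.0533). The block lost Pcdh11x in the GLP (0.228) and G9a hypothalamus (0.272), Cdh22 in the G9a hippocampus (0.0939), Cdh13 (0.361) and Pcdhb22 (0.162) in the G9a hypothalamus, and Cdh10 (0.0698) and Pcdh17 (0.0759) in the G9a striatum. Leaving out 1 array gave 1 to 2 members in the GLP hippocampus, 0 to 2 in the GLP hypothalamus, 0 to 2 in the GLP striatum, 1 to 2 in the GLP cortex, 2 to 4 in the G9a hippocampus, 1 to 7 in the G9a hypothalamus (7 without mutant 2), 1 to 3 in the G9a striatum, 0 in the G9a cortex and in either set of pools, and 1 to 2 between Drd1 and Drd2 controls. It gave 0 to 1 for the difference between lines, 0 to 2 for the G9a and 0 for the GLP change across tissues, 33 to 35 for GLP and 30 to 32 for G9a control tissues. The causes were not tested, apart from fewer arrays or genes in a fit. Over all genes, counts moved by over 1.5 times in the G9a hypothalamus (275 called, 20 with groups alone, 26 with the block, 483 with quantile normalization), the GLP hypothalamus (117 called, 39 with groups alone, 35 with the block) and the G9a cortex (85 called, 312 with groups alone, 275 with the block). Groups alone and the block gave 365 and 402 in the GLP cortex (179 called), 112 and 70 in the GLP striatum (193 called), and 186 and 204 in the G9a hippocampus (319 called). Between Drd1 and Drd2 controls 1882 genes were called, 4380 without a filter and 1095 with the block. In the pools, the 3 Drd1 calls went to 0 with groups alone and with the block, and the 2 Drd2 calls to 4 with quantile normalization and 7 with the block. Across tissues, the 132 GLP calls went to 206 with no filter and 254 with values floored at the array median, and the 164 G9a calls to 97 with the block. Calls between lines, 12 in the hippocampus, ran from 0 with the block to 49 with the floor, those in the hypothalamus (1 called) to 24 with the floor, those in the striatum (1 called) to 13 and those in the cortex (2 called) to 7. Bright signal does not show how specific a beta cluster probe set is, groups of 2 and of 3 give wide errors, and probe sets near the array median have little signal over background.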

Other observations

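Several cadherins kept 1 direction in all 8 tissue comparisons without passing in any. Cdh11, a type II cadherin of mesenchymal and neural cells, was lower in mutants in all 8, by 0.05 to 0.34 on the log2 scale. Pcdhb21 was higher in all 8, by 0.13 to 0.48, and came nearest to passing in the G9a hypothalamus (limma, adjusted p = 0.105). Pcdhb10 was higher in all 8, by 0.01 to 0.37. Cdh19, a type II cadherin of the glial lineage, read 1.99, 1.95, 1.73 and 1.48 in G9a hippocampus mutants, against 1.75, -0.25 and 1.41 in controls, a difference of 0.82 (limma, adjusted p = 0.111) with control 2 far below the rest.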
